A study of Homo sapiens with 12 samples.

Results

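PRSS3 and the plasminogen activator system were followed through a group of 8 genes: the secreted serine proteases PRSS3, PRSS23, PLAU, PLAT and HTRA1, the receptor PLAUR, and the serpin inhibitors SERPINE2 and SERPINB2. Every probe named for these genes on the Illumina HumanHT-12 V4 beadchip was taken, over the 4 groups given by the source names. Of the 8 genes, 7 had a named probe, with 9 probes in all, among 20041 genes with a named probe on the chip. All 9 probes were detected on all 12 arrays and passed the filter on dim probes, as 12048 genes did in all. SERPINB2 was not analysed here. The genes were chosen by their measured differences between these same groups, so their levels and differences are given as a description, with no p-value.

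The cells were MDA-MB-231, an established human triple-negative breast cancer line of mesenchymal appearance, transfected with 100 nM small interfering RNA (siRNA) in Oligofectamine. On 3 arrays the cells had received a scramble siRNA. On the other 9 they had received siRNA against ARF1, a small GTPase of the Golgi, bought as a pool according to the labels, and by source name they form sets of 3 arrays apiece, ARF-1, ARF-2 and ARF-4. The labels do not say what the set numbers stand for, or whether arrays of a set came from separate cultures, so the spread between arrays may be technical. The series was designed to examine ARF1 in the epithelial-mesenchymal transition.

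The plasminogen activator system is a proteolytic cascade at the cell surface. Urokinase (PLAU), held by its receptor (PLAUR), and tissue plasminogen activator (PLAT) cut plasminogen into plasmin, which dissolves fibrin and degrades matrix proteins, while serpins such as SERPINE2 trap the activators in inactive complexes. The trypsins, of which PRSS3 (mesotrypsin) is the member known for resisting and cleaving trypsin inhibitors, are related digestive proteases that some tumours also make. PRSS3 and PLAU have both been studied in breast cancer cells for their part in invasion.

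Values are background-corrected, quantile-normalized bead signals on the log2 scale, on which a difference of 1 is a doubling, and different probes cannot be compared in level. A difference is followed by its standard error (SE) from a linear model fitted to all probes, and a group mean by the standard deviation (SD) of its 3 arrays. Mean raw signal was 371.4 to 503.0 on the scramble arrays and 303.4 to 518.3 on the others, and 39.14% to 42.81% of probes were detected. All 8 markers of a mesenchymal breast cancer line, vimentin and CD44 among them, were detected on all 12 arrays. The summed level of these 8 was 63100 to 64400 in scramble, 60100 to 61000 in ARF-1, 59200 to 61700 in ARF-2 and 57100 to 57900 in ARF-4. Of 9 markers of luminal epithelium, EPCAM, KRT8, KRT18 and KRT19 were detected on all 12 arrays and ESR1, PGR and CDH1 on none. Their summed level was 2720 to 3140 in scramble, 3330 to 3570 in ARF-1, 3140 to 3210 in ARF-2 and 2580 to 2650 in ARF-4. Of leukocyte markers, CD14 and CSF1R were detected on all 12 arrays and PTPRC and CD3E on none, and of endothelial markers VWF, CDH5 and KDR were undetected throughout. PECAM1, the only endothelial marker detected on all 12 arrays, dominated a summed level of 155 to 169 in scramble, 201 to 208 in ARF-1, 250 to 270 in ARF-2 and 85.8 to 94.4 in ARF-4. The summed level of 5 leukocyte markers was 183 to 193 in scramble, 234 to 321 in ARF-1, 304 to 414 in ARF-2 and 213 to 230 in ARF-4. The part of these marker lists in the results below was not tested.

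The targeted gene did not show a fall. The brightest ARF1 probe (ILMN_1802203) read 11.78 ± 0.07 (SD, n = 9) on the arrays labelled ARF1 siRNA against 11.64 ± 0.06 (SD, n = 3) on scramble, a difference of 0.14 ± 0.08 with an adjusted p of 0.321 in limma. The groups are therefore named by their labels, and ARF1 loss is not shown to lie behind any of the values given here.

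PRSS3 lies at chr9:33750679-33799231 in GRCh38.p14. It is shown with the 250 bases before the start of its RefSeq transcript, because the related trypsin gene PRSS2, described below, differed between groups in the same direction and has a similar promoter. PLAUR, the urokinase receptor gene, is shown beside them because its window holds the AP-1 site TGAGTCA, where those of PRSS3 and PRSS2 hold TGAATCA. PLAUR read higher in ARF-1 and ARF-2, and whether these letters bear on any level was not tested. Sequences are from RefSeq on GRCh38.p14, 5′ to 3′ on the gene's strand, ending at the base before the start. Capitals mark matches on either strand to TATAA, the core of the TATA box, or to TGANTCA, which takes in the AP-1 site TGAGTCA along with other letters at N. The PRSS3 window is chr9:33795311-33795560, on the plus strand, inside the gene's span. The PRSS2 window is chr7:142770720-142770969, on the plus strand. The PLAUR window is chr19:43670170-43670419, on the minus strand.
PRSS3: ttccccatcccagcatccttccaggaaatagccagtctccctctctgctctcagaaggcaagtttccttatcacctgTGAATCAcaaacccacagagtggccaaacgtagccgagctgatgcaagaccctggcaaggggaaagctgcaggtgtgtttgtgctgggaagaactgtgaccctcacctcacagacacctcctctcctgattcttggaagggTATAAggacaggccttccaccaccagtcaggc
PRSS2: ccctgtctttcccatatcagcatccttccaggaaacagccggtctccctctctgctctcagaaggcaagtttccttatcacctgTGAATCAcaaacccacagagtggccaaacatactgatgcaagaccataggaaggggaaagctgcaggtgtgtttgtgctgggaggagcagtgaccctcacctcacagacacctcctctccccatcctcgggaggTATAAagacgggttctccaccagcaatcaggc
PLAUR: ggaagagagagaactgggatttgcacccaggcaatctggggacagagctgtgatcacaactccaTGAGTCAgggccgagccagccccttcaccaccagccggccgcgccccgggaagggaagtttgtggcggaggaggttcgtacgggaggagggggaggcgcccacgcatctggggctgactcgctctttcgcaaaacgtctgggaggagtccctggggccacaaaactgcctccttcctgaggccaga

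In the PRSS3 window TATAA begins 32 bases before the start and TGANTCA 173 bases before it. In the PRSS2 window they begin 32 and 166 bases before the start, and in PLAUR a match to TGANTCA begins 186 bases before it. Among 35114 RefSeq promoter windows of this length, 18.9% hold TATAA and 6.57% hold TGANTCA. Aligned over their whole length, the PRSS3 and PRSS2 windows were identical at 219 of 257 columns, or 85.2%, whereas PRSS3 and PRSS23 were identical at 48.1%. The PRSS1 window was closer still to that of PRSS3, at 224 of 253 columns or 88.5%, although PRSS1 was undetected on all 12 arrays. The windows searched for PRSS23, PLAU, SERPINE2 and HTRA1 hold neither TATAA nor TGANTCA, and that of SERPINB2 holds both, 30 and 102 bases before the start. PLAT was left out of this search, so nothing is said of its window. These matches describe letters only.

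PRSS3 was the member with the largest differences, lower than scramble in all 3 sets and lowest in ARF-4. Its probe (ILMN_1685699) read 8.93, 8.74 and 8.78 on the scramble arrays. It read 7.55, 7.67 and 8.03 for ARF-1, 7.52, 7.58 and 7.69 for ARF-2, and 6.78, 6.84 and 6.83 for ARF-4. No array labelled ARF1 siRNA reached the lowest scramble array, and the ARF-4 arrays all lay below every ARF-1 and ARF-2 array, while ARF-1 and ARF-2 overlapped. On the linear scale before normalization, the scramble arrays gave signals of 701.6, 466.8 and 542.2 and the ARF-4 arrays 179.5, 163.6 and 236.6, all detected.

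The PRSS3 means ran in the order scramble 8.82 ± 0.10, ARF-1 7.75 ± 0.25, ARF-2 7.60 ± 0.09 and ARF-4 6.82 ± 0.03 (SD, n = 3 each). ARF-1 was lower than scramble by 1.07 with an SE of 0.12, which is 2.09-fold. ARF-2 was 2.33-fold lower and ARF-4 3.99-fold lower. The ARF-4 difference of -2.0 ± 0.12 (95% confidence interval -2.26 to -1.74) stood 4th from the lowest among 12048 genes, each represented by 1 probe. The ARF-1 and ARF-2 differences stood 90th and 34th from the lowest. ARF-4 read 0.93 below ARF-1 and 0.78 below ARF-2, each with an SE of 0.12, whereas ARF-2 minus ARF-1 was -0.15 with an interval of -0.41 to 0.11. Over all 9 arrays the difference was -1.43 ± 0.23. Without background correction it was -1.02 over the 9 arrays and -1.36 in ARF-4. In RNA of whole cultures, fewer cells with a transcript and less of it per cell cannot be told apart.

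PRSS23, a secreted serine protease of poorly defined substrate, read slightly below scramble in ARF-1 and ARF-2 and further below it in ARF-4. Its probe (ILMN_1797776; gene at chr11:86791071-86952910) read 10.81, 10.75 and 10.73 in scramble and 9.96, 9.83 and 9.98 in ARF-4. It read 10.65, 10.49 and 10.64 in ARF-1 and 10.74, 10.53 and 10.50 in ARF-2. The ARF-4 arrays lay below all 9 others, the ARF-1 arrays just below scramble, and 1 ARF-2 array within the scramble range. The differences were -0.84 ± 0.10 for ARF-4, 61st from the lowest of 12048 genes, and -0.17 ± 0.10 for both ARF-1 and ARF-2, whose intervals of -0.37 to 0.04 and -0.38 to 0.04 include 0. ARF-4 was lower than ARF-1 by 0.67 ± 0.10 and than ARF-2 by the same amount.

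**Figure D1:**
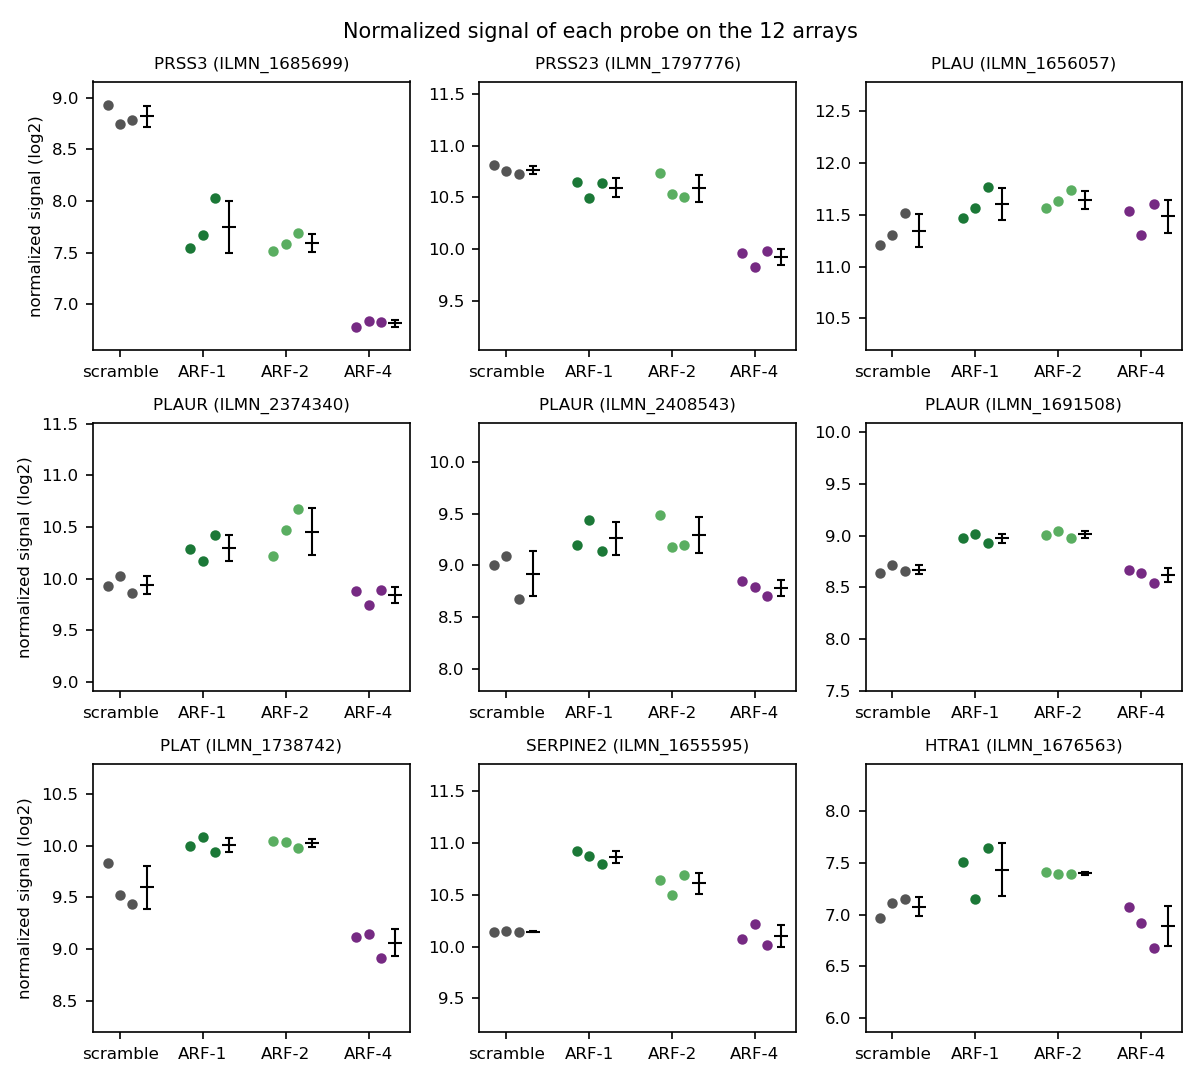
Normalized log2 signal of the 9 probes (panels) on the 12 arrays, by group. Points are arrays in the order of their replicate number and the black marks are group means with SD bars (n = 3); every vertical axis spans the same range. PRSS3 steps down from scramble (8.74 to 8.93) to ARF-4 (6.78 to 6.84), and PLAT in ARF-1 and ARF-2 lies above scramble and in ARF-4 below it.

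PLAU, the gene of urokinase, the main cell-surface plasminogen activator of invasive cells, had the smallest range of group means among the 7 genes, from 11.35 in scramble to 11.65 in ARF-2. Its probe (ILMN_1656057; gene at chr10:73908832-73917494) read 11.21, 11.31 and 11.52 in scramble. It read 11.47, 11.57 and 11.77 for ARF-1, 11.57, 11.63 and 11.74 for ARF-2, and 11.54, 11.31 and 11.61 for ARF-4. All 3 ARF-2 arrays lay above scramble, and the other sets overlapped it. The differences were 0.25, 0.30 and 0.14 for ARF-1, ARF-2 and ARF-4, each with an SE of 0.12, and the ARF-4 interval ran from -0.12 to 0.40. Differences between sets were 0.16 or less, with intervals that include 0.

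PLAT, the gene of tissue plasminogen activator, lay on opposite sides of scramble in different sets. Its probe (ILMN_1738742; gene at chr8:42174718-42207565) read 9.83, 9.52 and 9.44 in scramble, a spread set by 1 higher array. It read 10.00, 10.08 and 9.94 for ARF-1, 10.05, 10.04 and 9.98 for ARF-2, and 9.12, 9.15 and 8.91 for ARF-4. All ARF-1 and ARF-2 arrays exceeded scramble, and all ARF-4 arrays lay below it. The differences were 0.41, 0.42 and -0.54, each with an SE of 0.11, or 1.33-fold and 1.34-fold higher and 1.45-fold lower. ARF-4 was thus 1.93-fold below ARF-1 and 1.95-fold below ARF-2, the widest gaps from those 2 sets among the members, PRSS3 being next. Over all 9 arrays the difference came to 0.10 ± 0.25 and to -0.03 under median scaling, and without the ARF-4 arrays to 0.42.

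The urokinase receptor PLAUR, which anchors urokinase to the membrane through a lipid tail, was measured by 3 probes that gave the same pattern, above scramble in ARF-1 and ARF-2 and near it in ARF-4. The brightest (ILMN_2374340; gene at chr19:43646095-43670169) read 9.93, 10.03 and 9.86 in scramble, 10.29, 10.17 and 10.42 for ARF-1, 10.22, 10.47 and 10.67 for ARF-2, and 9.88, 9.75 and 9.89 for ARF-4. ARF-1 and ARF-2 did not overlap scramble, and ARF-4 did. Its differences were 0.35, 0.51 and -0.10, each with an SE of 0.12. The second (ILMN_2408543) differed by 0.34, 0.37 and -0.14 (SE 0.13) and the last (ILMN_1691508) by 0.31, 0.35 and -0.05 (SE 0.08). Between ARF-4 and ARF-1 the 3 probes read -0.45, -0.48 and -0.36, and between ARF-4 and ARF-2 -0.61, -0.51 and -0.40. All 3 intervals of the ARF-4 difference from scramble include 0, and the widest, for the second probe, ran from -0.43 to 0.15.

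SERPINE2, or protease nexin-1, a cell-bound serpin that inhibits thrombin and both plasminogen activators, had the largest positive difference among the members, in ARF-1. Its probe (ILMN_1655595; gene at chr2:223975045-224039286) read 10.14, 10.15 and 10.14 in scramble, 10.92, 10.88 and 10.80 for ARF-1, 10.64, 10.50 and 10.69 for ARF-2, and 10.07, 10.22 and 10.02 for ARF-4. The scramble arrays lay inside the ARF-4 range, and the ARF-1 arrays lay above all others. ARF-1 was higher than scramble by 0.72 ± 0.09 (1.65-fold) and ARF-2 by 0.47 ± 0.09 (1.38-fold), while ARF-4 differed by -0.04 ± 0.09. It was the only member whose ARF-1 and ARF-2 arrays did not overlap, ARF-2 being lower by 0.26 ± 0.09.

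HTRA1, a secreted protease that degrades matrix proteins and growth-factor regulators and stands outside the plasminogen cascade, read above scramble in ARF-1 and ARF-2 and overlapped it in ARF-4. Its probe (ILMN_1676563; gene at chr10:122461553-122514907) read 6.97, 7.11 and 7.15 in scramble, 7.51, 7.15 and 7.64 for ARF-1, 7.41, 7.39 and 7.39 for ARF-2, and 7.07, 6.92 and 6.68 for ARF-4. The ARF-2 arrays lay close together above scramble, and 1 ARF-1 array barely exceeded it. The differences were 0.36, 0.32 and -0.19, each with an SE of 0.13. The ARF-4 interval ran from -0.47 to 0.10, and leaving out 1 ARF-4 array (replicate 3) brought the difference to -0.08. ARF-4 was lower than ARF-1 by 0.55 and than ARF-2 by 0.51.

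**Figure D2:**
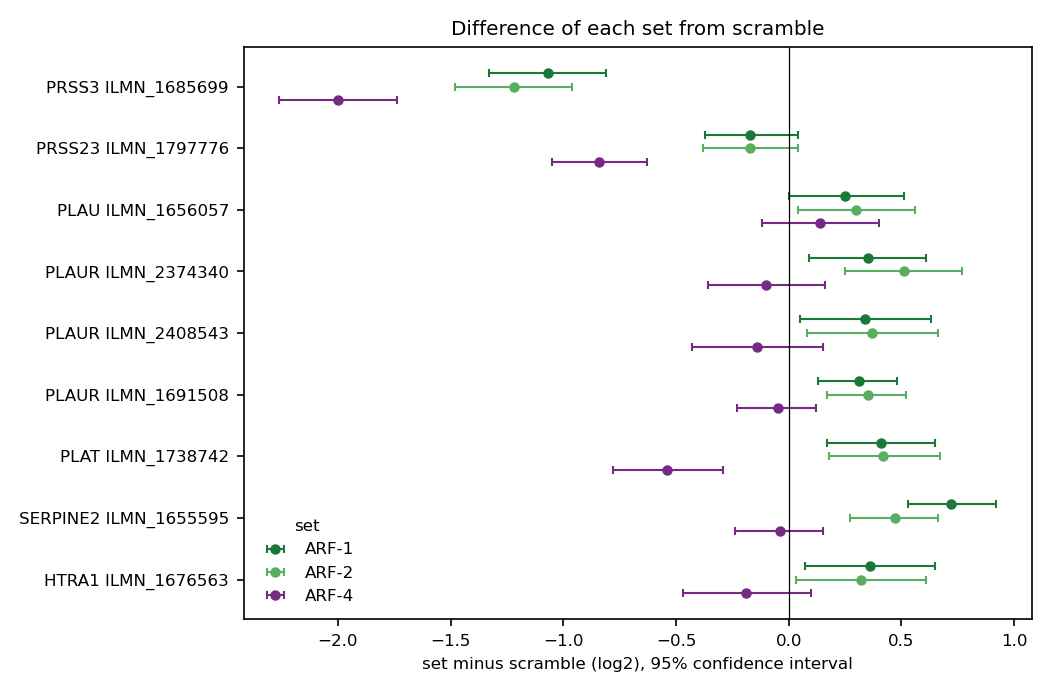
Difference of ARF-1, ARF-2 and ARF-4 from scramble on the log2 scale for the 9 probes, with 95% confidence intervals from the linear model; the 3 sets share the same 3 scramble arrays. For all probes except those of PRSS3, PRSS23 and PLAU, the ARF-1 and ARF-2 intervals lie above 0, and the ARF-4 intervals of PRSS3, PRSS23 and PLAT lie below it.

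Counted over the 7 genes with 1 probe each, 4 lay wholly above scramble in ARF-1 (PLAUR, PLAT, SERPINE2 and HTRA1) and 2 wholly below (PRSS3 and PRSS23). Over all 12048 genes, 23.8% lay wholly above and 23.9% wholly below in that comparison, 47.7% together. In ARF-2, 5 lay above, with PLAU added, and only PRSS3 below, beside 22.9% and 23.1% of all genes, 46.0% together. In ARF-4 none lay above and 3 lay below (PRSS3, PRSS23 and PLAT), beside 17.0% above and 16.4% below, 33.5% together. With all 9 arrays against scramble only PRSS3 was separated, beside 14.8% of all genes, 7.16% of them lower. The member median was 0.35, 0.32 and -0.19 in the 3 sets, and that of all genes 0 in each. Because the genes were picked for these contrasts, nothing is read from these counts, and the 3 comparisons share their scramble arrays.

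Between sets, 6 of the 7 genes read lower in ARF-4 than in ARF-1 without overlap, and the same number lower than in ARF-2, PLAU being the exception each time. Of all genes, 20.4% lay wholly lower in ARF-4 than in ARF-1 and 20.5% wholly lower than in ARF-2, and 41.4% and 40.6% lay apart in either direction. The members' median difference was -0.67 from ARF-1 and -0.61 from ARF-2, where that of all genes was 0.01. ARF-2 and ARF-1 parted without overlap for SERPINE2 alone, beside 15.8% of all genes, 7.27% of them lower in ARF-2.

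**Figure D3:**
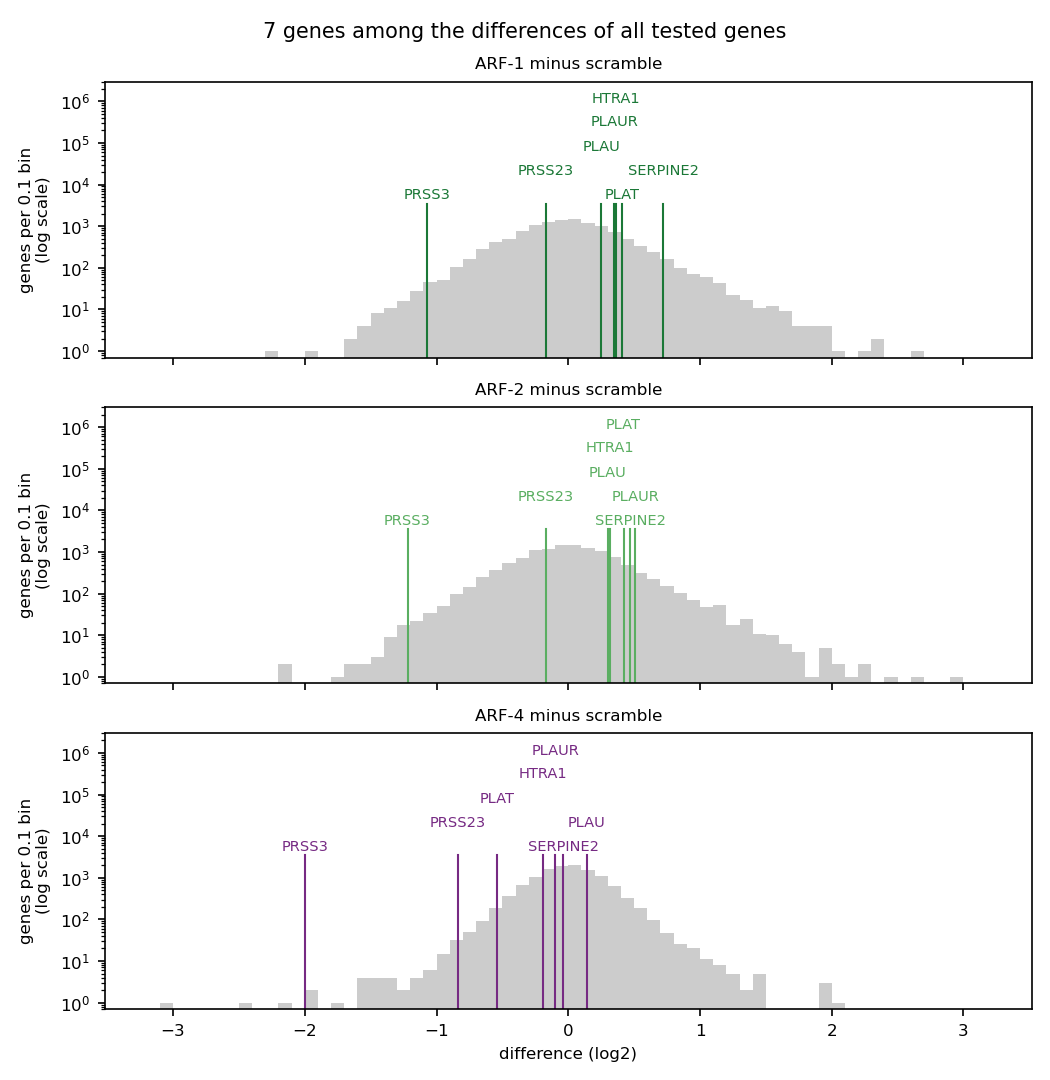
Histograms of the log2 difference from scramble over 12048 genes (grey, genes per bin of width 0.1, log scale), 1 panel a set, with a line for each of the 7 measured genes. PRSS3 at -2.0 in ARF-4 is 4th from the lowest; of the other 6 genes, PRSS23 at -0.84 in ARF-4 and SERPINE2 at 0.72 in ARF-1 lie farthest from 0.

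The genes with the pattern closest to each member were found by the root mean square (RMS) difference over the 12 arrays after each gene was centred on its scramble mean. For PRSS3 they were AGR2, FOXQ1 and TRIML2, at an RMS difference of 0.30, 0.32 and 0.32. AGR2 differed from scramble by -1.38, -1.11 and -2.44 for ARF-1, ARF-2 and ARF-4. For PRSS23 they were EPAS1, TPP1 and PLOD1, at 0.11 to 0.13. EPAS1 differed by -0.23, -0.08 and -0.93. For PLAT they were LAMA5, TENT5C and SPRY2, also at 0.11 to 0.13, and LAMA5 differed by 0.39, 0.50 and -0.49. For SERPINE2 the nearest was KLHL5 at 0.05, with differences of 0.67, 0.51 and -0.04. NFIL3 was nearest to PLAUR at 0.09, PCGF1 to PLAU at 0.07 and IRAK2 to HTRA1 at 0.10. These are descriptions over 12 arrays that share their groups.

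The other genes of the system were read from 8 lists of proteases, receptors and inhibitors, 136 genes in all, none of them a member. Of these 128 had a named probe and 49 passed the filter on dim probes. Between the 9 arrays and scramble 7 of the 49 passed an adjusted p of 0.05 in limma, 4 higher and 3 lower, or 14.3% beside 12.5% of all 12048 genes (6.50% higher and 5.99% lower). In ARF-1 17 passed, 12 higher and 5 lower, beside 30.6% of all genes (15.2% higher and 15.3% lower). In ARF-2 15 passed, 12 higher and 3 lower, beside 28.9% (14.7% and 14.1%). In ARF-4 5 passed, 2 higher and 3 lower, beside 9.79% (4.99% and 4.80%). The median difference over the 49 was 0.13, 0.10 and -0.10 in the same order of sets, that of all genes being 0. The 9-array count dropped to 3 without any 1 scramble array and was 19 without the ARF-4 arrays. The F-test asking whether the 3 sets differed among themselves passed for 16 of 49 beside 24.1% of all genes, and for 10 without ARF-4 replicate 2. ARF-4 was lower than ARF-1 for 12 and higher for 1 (F3) past the threshold. Of all 12048 genes, 1436 were called lower and 1448 higher in that comparison, 23.9% together. ARF-4 was lower than ARF-2 for 15 and higher for F3 alone. There 1480 of all genes were called lower and 1345 higher, 23.4% together.

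Plasminogen itself (PLG), the substrate of the system, was undetected on all 12 arrays, between 4.31 and 4.46. Of its 7 tested receptors and clearance partners, 3 rose in each of ARF-1 and ARF-2 and none passed in ARF-4 at its brightest probe, where 1 of 7 had an unadjusted p under 0.05. PLGRKT, a plasminogen receptor of the cell surface, rose by 0.69 ± 0.10 in ARF-1 (adjusted p = 0.000406) and by 0.56 ± 0.10 in ARF-2 (adjusted p = 0.00171), and read 0.21 ± 0.10 in ARF-4 (adjusted p = 0.234). Over the 9 arrays it was 0.49 ± 0.14 higher (adjusted p = 0.0357), a call lost when any 1 scramble array was left out (adjusted p 0.0941 to 0.152). The PLGRKT call in ARF-2 was lost under median scaling (adjusted p = 0.218). VLDLR, a lipoprotein receptor that also takes up complexes of activator and serpin, read 6.43 ± 0.20 in scramble, 7.59 ± 0.18 in ARF-1, 7.33 ± 0.05 in ARF-2 and 6.10 ± 0.25 in ARF-4 (SD, n = 3). It rose by 1.17 ± 0.14 in ARF-1 (adjusted p = 0.000123) and 0.90 ± 0.14 in ARF-2 (adjusted p = 0.000759), and ARF-4 lay 1.49 ± 0.14 below ARF-1 (adjusted p = 3.43e-05). A second VLDLR probe was undetected on all 12 arrays. S100A10, part of a plasminogen-binding complex, was the other riser in ARF-1 (0.34 ± 0.10, adjusted p = 0.0203), and IGF2R, a receptor that binds plasminogen and PLAUR, in ARF-2 (0.37 ± 0.11, adjusted p = 0.0254). A second S100A10 probe read 0.13 in ARF-1 (adjusted p = 0.352) and was lower in ARF-4 by 0.35 with an SE of 0.09 (adjusted p = 0.0331). Both genes fall outside the naming rule and were picked after their values were seen, as were F12, C1S, FURIN, SERPINB8 and SPINT2 below.

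Among the 5 tested trypsins and kallikreins, PRSS2 alone passed, and it was lower in every set. The share of all genes called lower was 15.3% in ARF-1, 14.1% in ARF-2 and 4.80% in ARF-4. PRSS2, the anionic trypsinogen, read 6.65 ± 0.44 in scramble, 5.84 ± 0.24 in ARF-1, 5.66 ± 0.19 in ARF-2 and 5.33 ± 0.16 in ARF-4 (SD, n = 3). Its fall over the 9 arrays was -1.04 ± 0.19 (adjusted p = 0.0035), and the sets differed from scramble by -0.81, -0.99 and -1.32 with an SE of 0.20 (adjusted p = 0.0097, 0.00333 and 0.00169). The order of the 4 groups was that of PRSS3, but the F-test did not separate the 3 sets (adjusted p = 0.188). PRSS1, the cationic trypsinogen, was undetected on all 12 arrays and the pseudogene PRSS3P2 on 11 of them. Trypsin genes are near copies of each other, and whether the PRSS2 and PRSS3 probes also bind each other's transcripts was not tested.

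No transmembrane serine protease passed over the 9 arrays or in any set, of 3 tested by limma, and none reached an unadjusted p of 0.05. Of the 4 tested proprotein convertases, 1 passed in ARF-1, where 15.3% of all genes were called lower. It was FURIN, which activates many secreted proteins and was lower there (detected on 2 of 3 arrays, -0.51 ± 0.18, adjusted p = 0.0488). None passed in ARF-2, where 1 of 4 (FURIN at -0.51) had an unadjusted p under 0.05, or in ARF-4, where none did. Among 8 HTRA relatives and other secreted proteases 3 rose in ARF-1 (CFD, C1R and F12) and 2 in ARF-2 (CFD and C1S). The share of all genes called higher was 15.2% in ARF-1 and 14.7% in ARF-2. None of the 8 passed in ARF-4, where 1 of 8 had an unadjusted p under 0.05. F12, coagulation factor XII, was higher by 0.46 ± 0.12 in ARF-1 (adjusted p = 0.0129). C1S, a complement protease, was undetected on all 3 scramble arrays and detected on 2 of 3 in ARF-2, where it was at least 1.08-fold higher (adjusted p = 0.0488), taking the lowest detected signal of each scramble array as the level where it exceeded the probe's own. The complement protease CFD rose by 0.48 ± 0.09 in ARF-2 (adjusted p = 0.00232) and read -0.20 ± 0.09 in ARF-4 (adjusted p = 0.213), and its calls in ARF-1 and ARF-2 were lost under median scaling (adjusted p = 0.644 and 0.374). C1R, another complement protease, read 0.77 ± 0.21 higher in ARF-1 (adjusted p = 0.0157), and was undetected on all 3 ARF-4 arrays and on 2 of the 3 scramble arrays. Leaving out ARF-1 replicate 3, or scramble replicate 1 or 3, ended that call (adjusted p 0.0594 to 0.0636). A second C1R probe, undetected on all 3 scramble arrays, was at least 1.11-fold higher in ARF-1 but did not pass (adjusted p = 0.0919).

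Of 5 tested receptors and cofactors that sense or start proteolysis, 3 passed over the 9 arrays, beside 12.5% of all genes. F2RL3, the thrombin receptor PAR4, rose in every set, from 4.89 ± 0.12 in scramble to 5.87 ± 0.08 in ARF-1, 6.41 ± 0.12 in ARF-2 and 6.09 ± 0.06 in ARF-4 (SD, n = 3). Its rise over the 9 arrays was 1.24 ± 0.14 (adjusted p = 1.66e-04), although 1 scramble array left it undetected and a second F2RL3 probe was undetected throughout. PROCR, the endothelial protein C receptor, rose by 0.73 and 0.70 in ARF-1 and ARF-2, each with an SE of 0.12 (adjusted p = 0.00102 and 0.00146), and read 0.27 ± 0.12 in ARF-4 (adjusted p = 0.209). F3, tissue factor, which starts coagulation, fell by 0.67 and 0.76 in ARF-1 and ARF-2 with an SE of 0.13 (adjusted p = 0.00226 and 0.00109). In ARF-4 it read -0.26 ± 0.13 (adjusted p = 0.241), and a second F3 probe read -0.80, -0.93 and -0.36. The calls of PROCR and F3 over the 9 arrays (adjusted p = 0.0263 and 0.0309) were lost without any 1 scramble array, at 0.0756 to 0.12 and 0.0652 to 0.171. F2R, the thrombin receptor PAR1, differed by 0.15 to 0.19 with none past the threshold at its brightest probe, while a second probe was lower in ARF-4 by 0.37 ± 0.10 (adjusted p = 0.0449).

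The serpins, to which SERPINE2 belongs, had 9 tested genes, of which 4 passed in each of ARF-1 and ARF-2 and 2 in ARF-4. SERPINB1, an inhibitor of neutrophil elastase, rose in all sets, by 1.35, 1.27 and 0.65 with an SE of 0.11 (adjusted p = 5.24e-06, 8.48e-06 and 0.00263), the ARF-4 call being lost under median scaling (adjusted p = 0.158). Over the 9 arrays its rise was 1.09 ± 0.19 (adjusted p = 0.0023). SERPINA1, alpha-1-antitrypsin, lay on opposite sides of scramble as PLAT did, at 0.42 and 0.62 in ARF-1 and ARF-2 and -0.53 in ARF-4, each with an SE of 0.10 (adjusted p = 0.0108, 0.000997 and 0.0084). Its F-test over the sets gave an adjusted p of 3.3e-05, and each of the 3 set calls was lost under median scaling, at 0.387, 0.14 and 0.0583. A pair of further SERPINA1 probes rose in ARF-1 and ARF-2 as well, by 0.51 to 0.58, but did not pass in ARF-4, at -0.32 and -0.16 (adjusted p = 0.119 and 0.571). SERPIND1, heparin cofactor II, rose in ARF-2 by 1.02 ± 0.15 (adjusted p = 0.000447) and read 0.28 and -0.17 in ARF-1 and ARF-4 (adjusted p = 0.2 and 0.567). SERPINB8, an intracellular serpin, fell in ARF-1 by 0.68 with an SE of 0.20 (adjusted p = 0.0275), although its arrays overlapped scramble and a second probe read -0.53 there (adjusted p = 0.0977). SERPINI1, neuroserpin, an inhibitor of tissue plasminogen activator, fell over the 9 arrays by 0.50 with an SE of 0.15 (adjusted p = 0.0405), which was lost without any 1 scramble array (0.113 to 0.159), and its second probe read 0.03. SERPINI1 also fell in ARF-1 and ARF-2, at -0.63 and -0.55 (adjusted p = 0.0114 and 0.0234), where its second probe read -0.19 and 0.13. The ARF-2 call was lost without scramble replicate 1, scramble replicate 2 or ARF-2 replicate 1 (adjusted p = 0.0531, 0.073 and 0.0933).

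Among 8 tested Kunitz, Kazal and WAP inhibitors, 2 rose in ARF-1, 2 in ARF-2 and none in ARF-4, where SPINT2, a membrane inhibitor of trypsin-like proteases, fell by 0.44 with an SE of 0.09 (adjusted p = 0.00988). TFPI, the inhibitor of tissue factor, rose by 1.02 ± 0.11 in ARF-1 (adjusted p = 4.88e-05) and 0.78 ± 0.11 in ARF-2 (adjusted p = 0.000334), and read 0.12 ± 0.11 in ARF-4 (adjusted p = 0.568). A second TFPI probe gave 1.05, 0.83 and 0.06, and another gave 0.80 and 0.50 in ARF-1 and ARF-2 and, being undetected on all 3 ARF-4 arrays, was at least 1.33-fold lower there (adjusted p = 0.128). WFDC3, a WAP-domain protein, rose by 0.64 and 0.81 in ARF-1 and ARF-2 with an SE of 0.14 (adjusted p = 0.00466 and 0.00111) and read 0.04 in ARF-4 (adjusted p = 0.893).

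**Figure D4:**
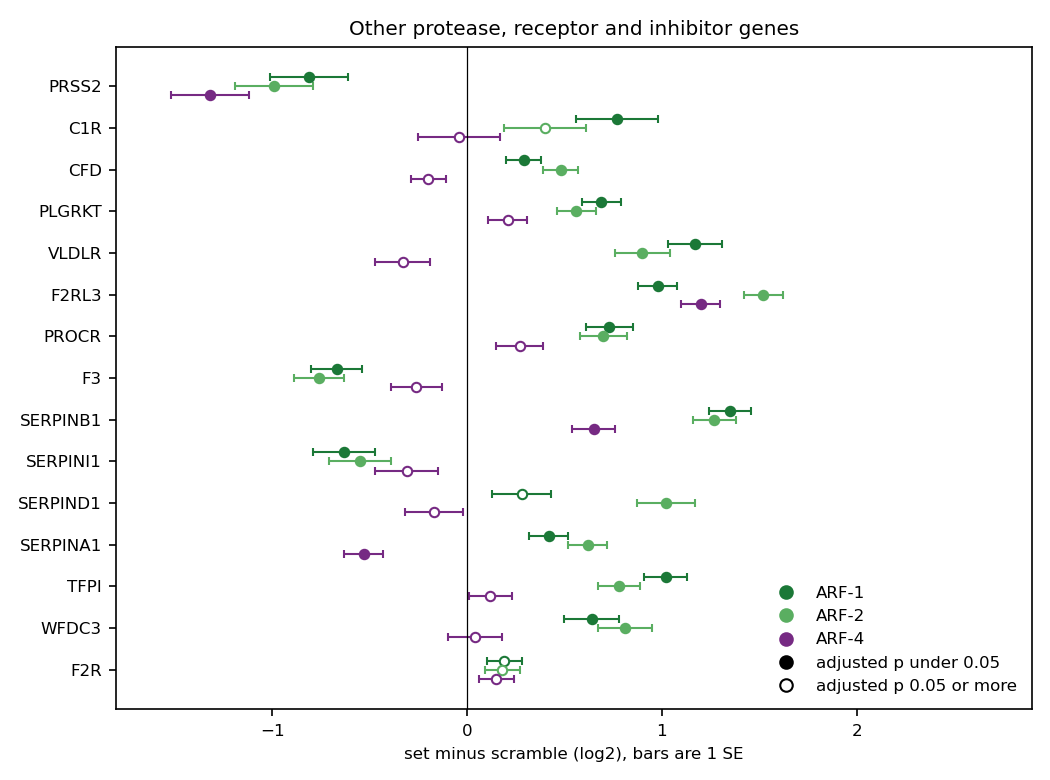
Difference from scramble on the log2 scale of 15 protease, receptor and inhibitor genes outside the member group, by set; bars are 1 SE and filled points pass an adjusted p of 0.05 over all probes. PRSS2 lies left of 0 and F2RL3 and SERPINB1 right of it in every set, while SERPINA1 lies right of 0 in ARF-1 and ARF-2 and left of it in ARF-4.

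**Figure D5:**
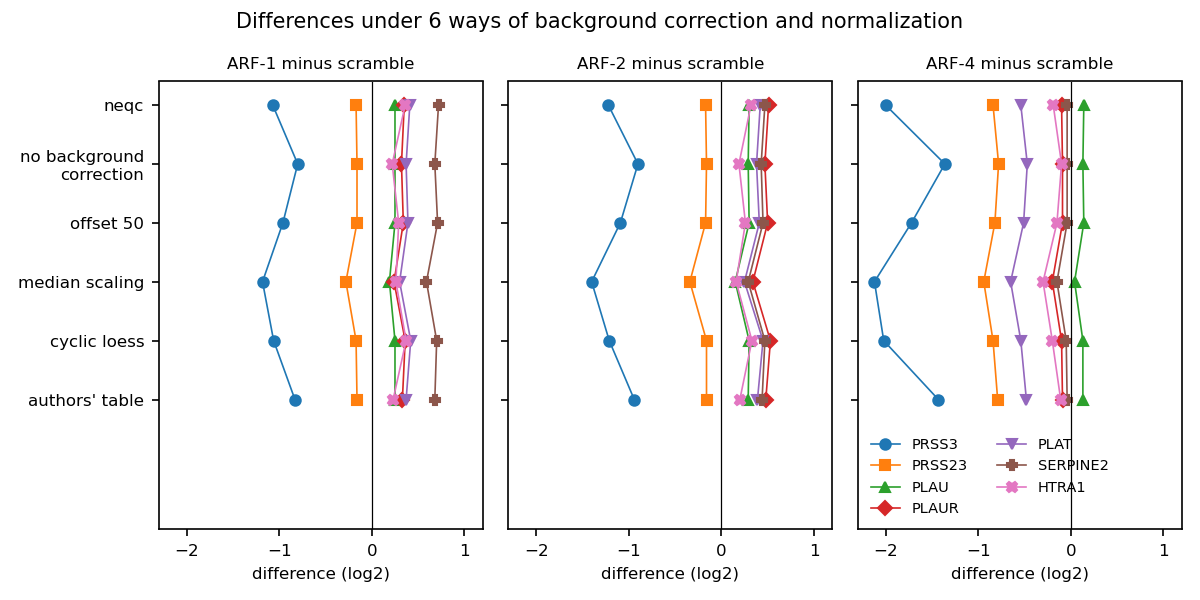
Differences from scramble of the 7 measured genes (brightest probe each) under 6 ways of background correction and normalization, 1 panel a set, on the log2 scale. PRSS3 in ARF-4 moves from -2.0 to -1.36 without background correction and -2.12 under median scaling; PLAT keeps its side of 0 in each set.

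Under the 6 ways of background correction and normalization, PRSS3 lay between -1.18 and -0.80 for ARF-1, -1.40 and -0.90 for ARF-2, and -2.12 and -1.36 for ARF-4. Median scaling, which shifted the median of all probes by -0.04 to -0.09, brought SERPINE2 in ARF-4 to -0.15 and PLAU in ARF-4 to 0.04. PLAT stayed between 0.30 and 0.53 for ARF-1, 0.25 and 0.54 for ARF-2, and -0.65 and -0.42 for ARF-4 over every setting and array left out.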

How the data were processed

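RNA of MDA-MB-231 cells (500 ng a sample) was hybridized to 12 one-colour beadchips. The deposited table holds non-normalized bead summary signals, an intensity per probe and array, with a detection p-value per the file headers, and the submitters' processing notes name BeadStudio 2.3.47. The authors' value table, also deposited as intensity, equals quantile normalization of those signals to within 6.06e-07 on the log2 scale. Of 47323 listed probes 12 were empty and 47311 were used. The platform annotation gave 1 gene symbol to 30113 of the listed probes, several to 8 and none to 17202, and no symbol was updated.

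From the deposited intensity the neqc function of limma 3.58.1 (R 4.3.3) computed background-corrected, quantile-normalized log2 values with an offset of 16. The 22195 probes with a detection p below 0.05 on at least 3 arrays entered limma's linear model with empirical Bayes variances, and two-sided p-values were adjusted over all of them by the Benjamini-Hochberg method. The 9 siRNA arrays against scramble were fitted with 2 group means, the sets with 4. Counts over genes used the kept probe with the highest mean (12048 genes, 3249 of them with more than 1 kept probe). The fits were tested on simulated data. The small number of arrays limits the precision, and p-values of the set fits measure only the spread between arrays that may be technical replicates. Over the 9 arrays the spread between the 3 sets also counts as error, and the arrays are treated as independent. Arrays correlated at 0.991 to 0.993 within groups and 0.979 to 0.993 between groups, and no pair was identical.

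The members and the lists were chosen with earlier results of these data known. Named were every member, per list up to 4 genes with the smallest adjusted p among those called over the 9 arrays and up to 2 with the widest range of group means among those called by the F-test, with PLG, PRSS1, PRSS2 and F2R in any case, and per member the 3 genes of closest pattern. The 8 list genes without a named probe were not analysed here. Promoter windows came from RefSeq (GRCh38.p14) and were aligned with Biopython 1.88. Alternatives varied the background correction, normalization, probe filter, variance prior, array weights, model and arrays used.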

Additional observations from a re-analysis of the deposited data

Results flagged for a closer look

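PLAT stood on opposite sides of scramble in different sets, every array of ARF-1 and ARF-2 above it and every array of ARF-4 below, at 0.41, 0.42 and -0.54 on the log2 scale. The difference between the sets was not tested, since PLAT was chosen for this pattern.

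For 12 of the named protease, receptor and inhibitor genes the effects of the 3 sets differed among themselves by limma's F-test. Among plasminogen receptors and clearance partners these were VLDLR (adjusted p = 5.39e-05) and PLGRKT (adjusted p = 0.012). Among serpins they were SERPINA1 (adjusted p = 3.3e-05), SERPIND1 (adjusted p = 0.00052) and SERPINB1 (adjusted p = 0.00103). Among the other inhibitors they were TFPI (adjusted p = 0.00035) and WFDC3 (adjusted p = 0.00395). The receptors and cofactors were F2RL3 (adjusted p = 0.00568), PROCR (adjusted p = 0.0289) and F3 (adjusted p = 0.0295). The complement proteases were CFD (adjusted p = 0.00066) and C1R (adjusted p = 0.0369). Some of the named genes were chosen by this same test, so nothing is read from their number. Of all 49 tested list genes 16 passed, beside 24.1% of all genes. Under median scaling CFD, PLGRKT, F2RL3, PROCR and F3 were lost (adjusted p = 0.0778, 0.313, 0.297, 0.34 and 0.122). C1R, PROCR and F3 were each lost without any 1 ARF-4 array (adjusted p 0.0583 to 0.121), and C1R was undetected on all 3 ARF-4 arrays.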

How the results depend on the processing

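No called difference reversed under any alternative tried. PLAT over the 9 arrays, a member difference smaller than its SE, changed sign, from 0.10 to -0.03 under median scaling. Of the member differences recomputed, 803 moved by less than the spread between replicates and 43 by more. Of the calls of named genes, 1605 kept their side of the threshold, 77 lost it and 28 gained it. The probe counts called were 2423 over the 9 arrays, 5741, 5452 and 1845 for ARF-1, ARF-2 and ARF-4, and 4401 by the F-test, and the list counts 7, 17, 15, 5 and 16. Median scaling gave 3071, 3180 and 662 probes in the sets and 1813 by the F-test, and 2 list genes in ARF-4 and 7 by the F-test. It lowered the share of higher calls from 51.5% to 30.4% over the 9 arrays, from 50.4% to 37.5% in ARF-1, from 49.9% to 29.1% in ARF-2 and from 51.5% to 32.9% in ARF-4. In ARF-4, 3041 probes were called without background correction, 2995 from the authors' value table, 2817 with a trended and robust prior and 1104 with only the 6 arrays compared. Over the 9 arrays, array weights gave 5638 probes and 14 list genes, 4 group means 5267 and 12, the source name as a random block (correlation 0.289) 551 and 3, and leaving out ARF-4 6478 and 19. Adding a fold of 1.5 left 998, 2497, 2300 and 766 probes in the 4 comparisons, and 3 list genes over the 9 arrays and 3 in ARF-4, and it was not applied to the F-test. Without the probe filter 4 list genes passed over the 9 arrays, and with detection p below 0.01 on all arrays 11 passed in ARF-1. The cause of these shifts was not tested.

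Leaving out each array in turn gave 844 to 3029 probes and 3 to 10 list genes over the 9 arrays, 4570 to 5745 and 12 to 17 in ARF-1, 4215 to 5442 and 12 to 16 in ARF-2, 1118 to 1785 and 5 to 6 in ARF-4, and 3135 to 4181 and 10 to 16 by the F-test. The counts over the 9 arrays were 974, 844 and 865 without scramble replicate 1, 2 and 3. In ARF-4 they were 1183, 1146 and 1118 without those arrays and 1210 without ARF-4 replicate 2. The difference of the brightest ARF1 probe ran from 0.11 to 0.17. With the replicate number as a block, 1796 probes and 4 list genes passed over the 9 arrays, PLGRKT, F3 and SERPINI1 being lost (adjusted p = 0.0581, 0.0516 and 0.0501). By the F-test C1R and PROCR were lost (0.0553 and 0.0547). The labels do not say whether the numbers pair the arrays. Deviations of arrays with the same number correlated at -0.0223 to 0.0372, with a mean of 0.00842 beside -0.00421 for arrays of other numbers. For 8 of 12 arrays the best correlation was with their own number, and whether this reflects pairing was not tested. Probes near background, such as C1R and C1S, give bounds rather than differences where a group was undetected.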

Other observations

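ANXA2, annexin A2, which forms the plasminogen-binding complex with S100A10, was measured by 3 probes that did not all give the same call, and these values were picked after they were seen. ILMN_1755937 read -0.32, -0.50 and -0.37 for ARF-1, ARF-2 and ARF-4 (adjusted p = 0.0452, 0.00541 and 0.0577). ILMN_1711899 read -0.30, -0.37 and -0.25 (adjusted p = 0.0494, 0.02 and 0.159), and ILMN_2409167 -0.11, -0.08 and -0.10 (adjusted p = 0.436, 0.607 and 0.583).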
